A study of Mus musculus with 36 samples.

Results

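The 11 arrays described here are induced pluripotent stem (iPS) cell clones made from mouse embryonic fibroblasts with Oct4, Sox2, Klf4 and Tbx3 (the OSKT set), out of 36 arrays in all. They were divided by the clone number in their labels into clones 1 to 4 (4 arrays) and clones 5 to 11 (7 arrays). The division was chosen by the measured expression values themselves, because arrays with low and high numbers had been seen to differ. The contrast between the ranges is therefore given as a description, with no test. All OSKT clones are labelled as made with the same 4 factors. The labels record no difference between the ranges other than the clone number and give neither medium nor passage for them. The other arrays were 11 clones made with Oct4, Sox2 and Klf4 (OSK), 8 clones made with Oct4, Sox2 and Esrrb (OSE), 4 replicates of the embryonic stem (ES) cell line R1 in mESC medium and 2 replicates of the ES cell line D3 grown in fibroblast medium. The labels call each iPS sample a clone and do not say whether clones came from separate infections or animals, so p-values below measure the spread between these samples only, which may in part be technical.

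iPS cells are somatic cells returned to a state like that of the early embryo by added transcription factors. In mouse, cultures of such cells move between a naive state, held by Nanog, Klf4, Esrrb and Tbx3, and states that resemble the first steps of differentiation. When they leave the naive state they can turn on genes of the post-implantation epiblast and of the primitive streak, the site of gastrulation where Wnt, Nodal, BMP and Fgf signals specify mesoderm and endoderm. Trophoblast and primitive endoderm are the lineages of the blastocyst that form the placenta and the yolk sac.

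Gene expression was read on a one-colour Illumina bead array, and levels are log2 intensities after background correction and quantile normalization, so that a difference of 1 is a 2-fold change. The 75th percentile of the signal was 484 to 1057 intensity units in clones 1 to 4 (median 595, with clone 4 the brightest of all 36 arrays) and 378 to 513 in clones 5 to 11 (median 414). Between 9234 and 9527 probes stood above background in clones 1 to 4, and 8788 to 9309 in clones 5 to 11. Brightness thus moved with the range of clone numbers, and its part in the differences was not tested. After filtering, 10533 features were compared, of which 9235 had a gene symbol. Pou5f1 (Oct4), the central pluripotency factor, was above background on all 11 OSKT arrays, with 13.12 ± 0.14 in clones 1 to 4 and 13.61 ± 0.08 in clones 5 to 11 (mean ± SD of log2 intensity, n = 4 and 7), and 13.48 in R1. The Y-linked gene Eif2s3y, a translation initiation factor subunit, was above background on none of the 11 OSKT arrays and on all 4 R1 arrays, where it averaged 11.17 (R1 at least 18.3-fold over the OSKT clones, limma adjusted p = 2.3e-17).

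Several clones were as alike as R1 replicates. The distance between arrays was taken as the root mean square log2 difference over all features, and the farthest pair of R1 replicates lay 0.22 apart. Of the 55 OSKT pairs, 6 lay within that distance. They link clone 1 with 4, clone 2 with 3, clones 6, 7 and 8 with each other, and clone 9 with 11, so clones 1 to 4 hold 2 distinct profiles and clones 5 to 11 hold 4. Pairs within clones 1 to 4 lay 0.17 to 0.27 apart and pairs within clones 5 to 11 lay 0.18 to 0.33 apart. Pairs across the ranges lay 0.38 to 0.52 apart, so that no pair across the ranges was as close as the farthest pair inside a range. The first principal component of the 11 arrays, with 58.8% of the variance, had scores of 23.75 to 25.95 in clones 1 to 4 and −21.51 to −7.97 in clones 5 to 11. The mean distance to the R1 arrays was 0.70 for clones 1 to 4 and 0.67 for clones 5 to 11.

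**Figure D1:**
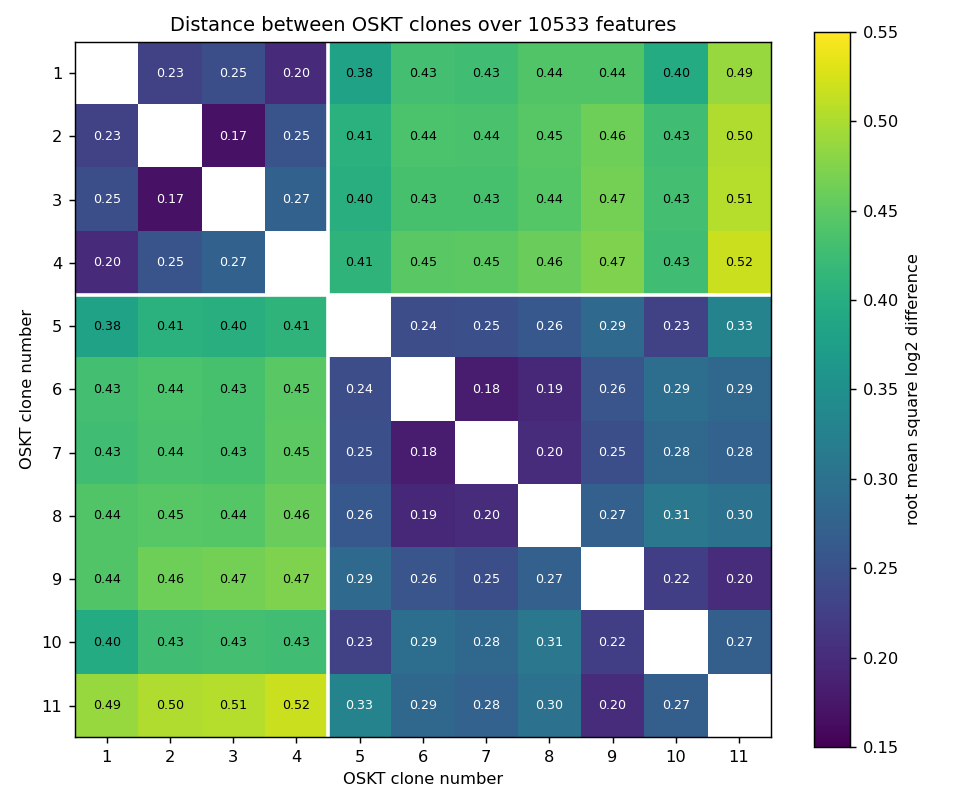
Root mean square log2 difference over 10533 features for each pair of the 11 OSKT clones, with clone numbers on both axes and white lines between clones 4 and 5. Pairs across the lines are all at 0.38 or above, and pairs within a range are all at 0.33 or below.

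Across all features, 1503 (14.3%) were higher in every one of clones 1 to 4 than in every one of clones 5 to 11, and 1379 (13.1%) were lower in every one. With a difference of at least 2-fold as well, 230 features (2.18%) were higher and 43 (0.408%) were lower in clones 1 to 4. These shares are the background against which the counts below are to be read. Just inside the 2-fold limit, the smallest difference among the 230 was 1.0006 on the log2 scale, and the largest outside it among features without overlap was 0.9983. On the other side the values were −1.0065 inside and −0.9996 outside. Of the 230 features, 38 were below background on all arrays of clones 5 to 11. Scaling the arrays to a common median in place of quantile normalization moved the median difference of all features to 0.15, against −0.04 here, and gave 2780 features higher and 371 lower without overlap. Small differences towards lower levels in clones 1 to 4 therefore depend on the scaling, and the lists below are also given under median scaling, beside the list or together near the end of the account of lists.

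The genes with the largest differences towards clones 1 to 4 included transcription factors of the primitive streak, its ligand Fgf8, and Fgf5, a ligand of the post-implantation epiblast. The promoter source held no entry for Sox17, Fgf8, Foxq1 and Mixl1. Sequences just before the start sites of 4 genes that stood high in the same clones, picked by hand, are shown first. They are the 250 bases before the start site, from RefSeq on GRCm38.p6, written 5′ to 3′ on the gene's strand, for Sp5 (chr2:70474673-70474922, plus strand), Lhx1 (chr11:84525535-84525784, minus strand), Evx1 (chr6:52313248-52313497, plus strand) and Fgf5 (chr5:98253934-98254183, plus strand). Capitals mark matches, on either strand, to CTTTGAT (a Tcf/Lef motif, through which Wnt signalling acts), CTTTGTT (a Sox motif) or AGGTGT (a T-box motif).
Sp5: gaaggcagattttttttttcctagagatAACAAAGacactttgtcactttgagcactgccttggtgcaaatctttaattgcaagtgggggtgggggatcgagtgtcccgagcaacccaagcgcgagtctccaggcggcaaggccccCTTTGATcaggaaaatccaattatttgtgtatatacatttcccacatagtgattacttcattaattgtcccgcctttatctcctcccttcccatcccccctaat
Lhx1: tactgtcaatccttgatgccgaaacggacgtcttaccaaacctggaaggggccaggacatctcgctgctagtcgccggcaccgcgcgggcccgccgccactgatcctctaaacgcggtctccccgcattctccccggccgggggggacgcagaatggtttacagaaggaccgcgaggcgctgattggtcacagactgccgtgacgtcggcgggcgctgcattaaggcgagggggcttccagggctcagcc
Evx1: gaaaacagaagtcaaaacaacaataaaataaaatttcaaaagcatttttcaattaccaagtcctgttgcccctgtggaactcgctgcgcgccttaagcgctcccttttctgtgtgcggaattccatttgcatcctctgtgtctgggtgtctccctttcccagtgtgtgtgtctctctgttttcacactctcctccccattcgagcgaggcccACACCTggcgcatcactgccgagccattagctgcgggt
Fgf5: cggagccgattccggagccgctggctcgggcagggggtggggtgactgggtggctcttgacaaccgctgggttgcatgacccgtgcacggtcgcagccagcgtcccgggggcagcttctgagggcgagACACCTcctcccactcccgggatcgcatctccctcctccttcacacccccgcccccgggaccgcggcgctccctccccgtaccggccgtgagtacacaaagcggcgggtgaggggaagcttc
The first 2 motifs differ by 1 letter and cannot match at the same place. The Sp5 stretch held 1 match to CTTTGAT and 1 to CTTTGTT (read as AACAAAG on the printed strand), the Evx1 and Fgf5 stretches each held 1 to AGGTGT (read as ACACCT), and the Lhx1 stretch held none of the 3. Among 32851 promoter stretches of the same length, CTTTGAT was in 3.21%, CTTTGTT in 5.03% and AGGTGT in 11.83%.

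Sp5, a zinc finger transcription factor and a direct target of Wnt signalling, stood among the genes with the largest differences. Its log2 intensity was 10.08, 9.12, 9.14 and 9.98 in clones 1, 2, 3 and 4, and ran from 5.84 to 7.09 with a median of 6.10 in clones 5 to 11. The ranges did not overlap, and the mean difference was 3.32, a value that rests on dim signals, since 1 of the 7 arrays of clones 5 to 11 was above background. Lhx1, a LIM homeobox factor of the streak's organizer, was at 9.76, 8.66, 8.71 and 9.54 in clones 1 to 4 and at 5.87 to 6.46 (median 6.01) in clones 5 to 11, none of which was above background, so that clones 1 to 4 were at least 4.47-fold higher. Fgf8, a ligand of the streak, was at 9.55, 9.18, 9.34 and 9.87 in clones 1 to 4, and ran from 6.05 to 7.21 with a median of 6.60 in clones 5 to 11, where 1 of 7 arrays was above background. For these genes no array of clones 5 to 11 reached the lowest of clones 1 to 4.

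Fgf5, the ligand that marks the post-implantation epiblast, was at 9.88, 9.35, 9.47 and 9.65 in clones 1 to 4 and at 6.87 to 7.90 (median 7.08) in clones 5 to 11. The difference was 5.06-fold, with 3 of the 7 arrays of clones 5 to 11 above background. The homeobox gene Otx2 went the other way, with a mean of 10.73 in clones 1 to 4 and 11.33 in clones 5 to 11. Mixl1, a homeobox gene of the streak, had a log2 intensity of 7.75, 6.95, 6.83 and 7.81 in clones 1 to 4 and 5.15 to 5.71 (median 5.39) in clones 5 to 11, at least 1.26-fold higher, with 3 of 4 arrays above background in clones 1 to 4 and none in clones 5 to 11. Evx1, a homeobox gene of the posterior streak, was at 8.61, 7.58, 7.36 and 8.51 in clones 1 to 4 and at 5.82 to 6.64 (median 6.32) in clones 5 to 11, at least 2.01-fold higher. In Sp5, Lhx1, Mixl1 and Evx1 alike, clones 1 and 4 stood above clones 2 and 3.

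Of the 20 tested genes on the list for mesoderm and primitive streak, 12 were higher in clones 1 to 4 without overlap, 10 of them by at least 2-fold, and none was lower. The median difference over the 20 genes was 0.98, against −0.04 over all features. Of the 20 genes, 8 were below background on all arrays of clones 5 to 11, and 2 of these on all arrays of clones 1 to 4 as well. With a gene below background in 1 range set at its bound, and at 0 where both ranges were below, the median was 0.56, against −0.02 over all features treated in the same way. The mean log2 intensity of the list, which includes these dim values, was 8.92, 8.58, 8.59 and 8.90 in clones 1, 2, 3 and 4, and ran from 7.61 to 7.92 with a median of 7.71 in clones 5 to 11. In R1 it was 7.71 ± 0.05 (SD, n = 4), within the range of clones 5 to 11. Over all 11 clones, 4 of the 20 genes rose and 3 fell against R1 by limma at an adjusted p under 0.05, where 26.4% of all features rose and 27.9% fell. With near-identical arrays averaged, 1 rose and none fell. Fgf8, above background on no R1 array, was among those that rose, at least 1.61-fold (limma adjusted p = 0.0353), but missed the threshold without any 1 of clones 1 to 4 (adjusted p = 0.0552 to 0.0589), without R1 replicate 1, 2 or 4 (0.0725 to 0.0868) and with near-identical arrays averaged (0.397). Sp5, with 6.93 in R1 and a mean of 7.47 over the OSKT clones, missed the threshold (0.54 ± 0.92, adjusted p = 0.647).

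Signals that act in the streak are described beside it. On the list for Nodal, BMP and Id signalling, 6 of 15 tested genes were higher in clones 1 to 4 without overlap, 5 of them by at least 2-fold, and 1 was lower, with a median difference of 0.17. Bmp4, the BMP ligand that induces mesoderm, was at 10.86, 10.67, 11.02 and 11.03 in clones 1 to 4 and at 9.16 to 9.67 (median 9.35) in clones 5 to 11, a 2.79-fold difference. Id1, a target of BMP signalling, had a 2.16-fold difference with no overlap. Fst, the secreted activin antagonist follistatin, differed 2.40-fold and Inhbb, the activin subunit, 2.17-fold, also without overlap. The R1 mean lay above the mean of clones 1 to 4 for Bmp4 and Inhbb, and slightly above it for Id1. Bmp4, Inhbb and Id1 were thus low in clones 5 to 11, and not raised over R1 in clones 1 to 4. For the streak list mean, in contrast, R1 lay within the range of clones 5 to 11. Fst in R1 lay between the means of the ranges. On the Wnt list, 6 of 18 tested genes were higher and 1 lower without overlap, with a median difference of 0.37, or 0.08 with genes at their bounds. Axin2, a feedback inhibitor of Wnt signalling, was at 8.35, 8.10, 8.14 and 8.66 in clones 1 to 4 and at 6.84 to 7.68 (median 7.32) in clones 5 to 11. Porcn, the X-linked acyltransferase that lets Wnt ligands be secreted, went the other way at 8.60 ± 0.17 in clones 1 to 4 and 9.30 ± 0.17 in clones 5 to 11 (SD, n = 4 and 7).

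**Figure D2:**
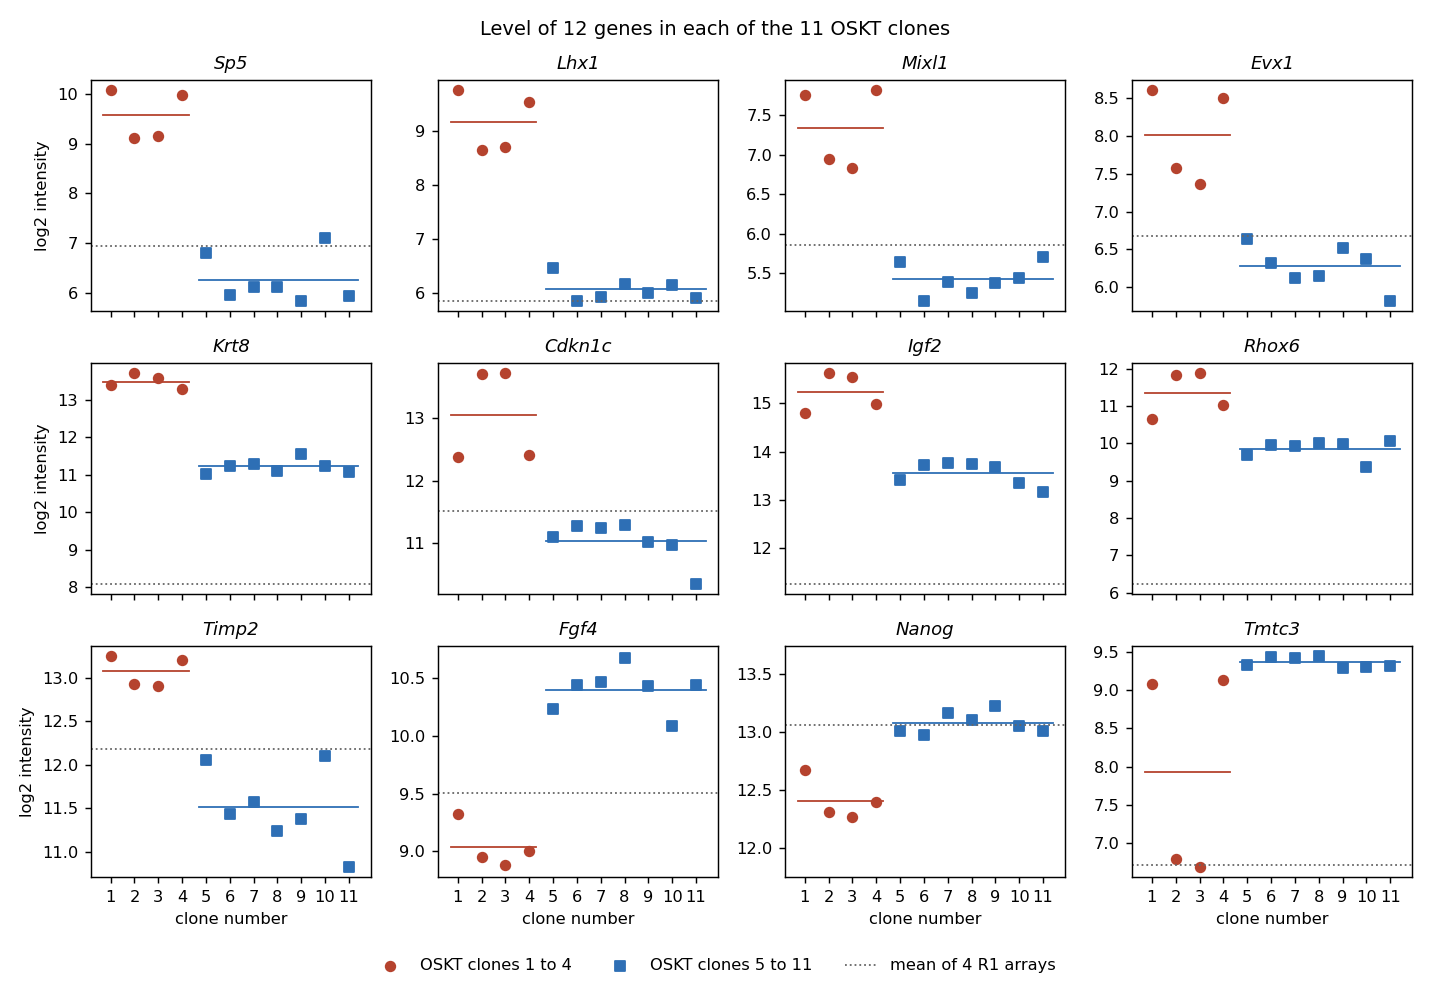
Log2 intensity of 12 genes in each of the 11 OSKT clones (points), with clone numbers on the horizontal axis, the mean of each range as a solid line and the mean of the 4 R1 arrays as a dotted line. Clones 1 to 4 stand above clones 5 to 11 for the first 9 genes and below them for Fgf4, Nanog and Tmtc3, and clones 1 and 4 part from clones 2 and 3 for Sp5, Cdkn1c and Tmtc3.

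Genes used in trophoblast and in simple epithelia made up a further group. Of 24 tested genes on the trophoblast list, 12 were higher in clones 1 to 4 without overlap and all 12 passed 2-fold, and 1 was lower, with a median difference of 1.10, or 0.77 with 3 genes that were below background in clones 5 to 11 at their bounds. The list's mean log2 intensity was 9.78, 10.29, 10.30 and 9.78 in clones 1, 2, 3 and 4, and 9.12 to 9.23 (median 9.13) in clones 5 to 11. Clones 2 and 3 were thus the highest, the reverse of their order for the streak genes. In R1 the mean was 7.97 ± 0.05 (SD, n = 4), below every OSKT clone, and 19 of the 24 genes rose and 3 fell in the OSKT clones against R1 by limma. With near-identical arrays averaged, 11 rose and none fell.

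Krt8 and Krt18 encode the paired keratins of simple epithelia. Krt8 was at 13.39, 13.71, 13.58 and 13.29 in clones 1 to 4 and at 11.02 to 11.56 (median 11.24) in clones 5 to 11, a 4.82-fold difference without overlap. Krt18 was at 12.49, 12.88, 12.90 and 12.33 in clones 1 to 4 and at 10.46 to 10.82 (median 10.68) in clones 5 to 11, 3.99-fold. Both rose against R1 over all 11 clones, Krt8 by 3.96 ± 0.43 and Krt18 by 3.48 ± 0.37 on the log2 scale (SE, limma adjusted p = 1.06e-09 and 6.1e-10). Krt7 and Krt19, 2 further simple keratins, were 2.91-fold and 2.60-fold higher in clones 1 to 4 without overlap. Of the 23 genes on the list for simple epithelial keratins and adhesion, 9 were higher without overlap and none lower, with a median difference of 0.23, so the 4 keratins stood apart from most junction genes of the list.

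Rhox6, an X-linked homeobox gene of placenta and germ cells, was at 10.66, 11.82, 11.87 and 11.02 in clones 1 to 4 and at 9.38 to 10.05 (median 9.94) in clones 5 to 11, 2.81-fold higher, and it rose at least 11.2-fold against R1, where no array was above background (limma adjusted p = 1.78e-12). Ctsj, a cathepsin of the rodent placenta, was at 7.44, 9.67, 9.67 and 7.78 in clones 1 to 4 and at 5.87 to 6.83 (median 6.18) in clones 5 to 11, none of them above background, a difference of at least 3.10-fold. Prl2c2, a placental prolactin-family hormone, overlapped: clones 1 to 4 were at 10.00, 11.53, 11.29 and 10.16 and clones 5 to 11 ran from 8.53 to 10.27 with a median of 8.69. Serpinb9f, a serine protease inhibitor, differed 4.13-fold without overlap.

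Cdkn1c and Igf2 are imprinted genes that act against and for growth, the first as a cyclin-dependent kinase inhibitor and the second as a growth factor. Cdkn1c was at 12.37, 13.70, 13.71 and 12.40 in clones 1 to 4 and at 10.36 to 11.29 (median 11.10) in clones 5 to 11, a 4.03-fold difference. Igf2 was at 14.81, 15.62, 15.54 and 14.99 in clones 1 to 4 and at 13.17 to 13.77 (median 13.69) in clones 5 to 11, a 3.22-fold difference. Neither overlapped, and clones 2 and 3 were again the highest. Igf2 rose against R1 by 2.90 ± 0.31 (SE, limma adjusted p = 4.87e-10), and Cdkn1c missed the threshold (0.25 ± 0.44, adjusted p = 0.651). Of the imprinted list, 7 of 24 tested genes were higher and 4 lower without overlap, with a median difference of 0.09.

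Among endoderm genes, Sox17, a factor of primitive and definitive endoderm, was at 9.04, 9.04, 8.99 and 9.05 in clones 1 to 4 and at 5.63 to 6.39 (median 6.04) in clones 5 to 11. No array of clones 5 to 11 was above background, so the difference was at least 4.06-fold. Of the 18 tested genes on the primitive endoderm list, 6 were higher without overlap, 5 of them by at least 2-fold, and 2 were lower, with a median difference of 0.65. Col4a1 and Col4a2, the type IV collagen chains that primitive endoderm lays down as basement membrane, were 2.51-fold and 2.56-fold higher in clones 1 to 4, with Col4a1 at 12.43, 13.61, 13.72 and 12.52 in clones 1, 2, 3 and 4. Gata6, a lineage factor of primitive endoderm, was at 9.53 ± 0.16 in clones 1 to 4 and 8.26 ± 0.19 in clones 5 to 11 (SD, n = 4 and 7). Dab2, an endocytic adaptor of visceral endoderm named here after its values were seen, was at 9.46, 11.30, 11.50 and 9.44 in clones 1 to 4 and averaged 9.19 in clones 5 to 11. Its high level lay in clones 2 and 3, and clones 1 and 4 were within the range of clones 5 to 11.

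Markers of fibroblasts, the cells of origin, and of contractile cells also moved with the range. Of 39 tested fibroblast genes, 26 were higher in clones 1 to 4 without overlap, 7 of them by at least 2-fold, and 1 was lower, with a median difference of 0.53. The mean log2 intensity of the list was 10.13 to 10.35 in clones 1 to 4 and 9.41 to 9.69 in clones 5 to 11, without overlap, beside 9.54 to 9.60 in R1. Of 19 contractile genes, 13 were higher, 6 of them by at least 2-fold, and 2 were lower, with a median difference of 0.63, or 0.45 with genes at their bounds. Acta2, smooth muscle actin, was at 13.64, 13.18, 13.20 and 13.48 in clones 1 to 4 and at 11.05 to 12.37 (median 11.80) in clones 5 to 11, a 2.92-fold difference. Tagln (transgelin) was 3.54-fold and Timp2, an inhibitor of matrix metalloproteinases, 2.94-fold higher in clones 1 to 4 without overlap. Thbs1, a matrix glycoprotein, was 3.17-fold higher. In bulk samples such as these, fewer cells of a type and less RNA per cell cannot be told apart, and the part of fibroblast or other differentiated cells in the streak, trophoblast and endoderm differences was not tested. The fibroblast list had 3 of its 39 tested genes below background on all arrays of clones 5 to 11 and 1 on all arrays of clones 1 to 4.

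**Figure D3:**
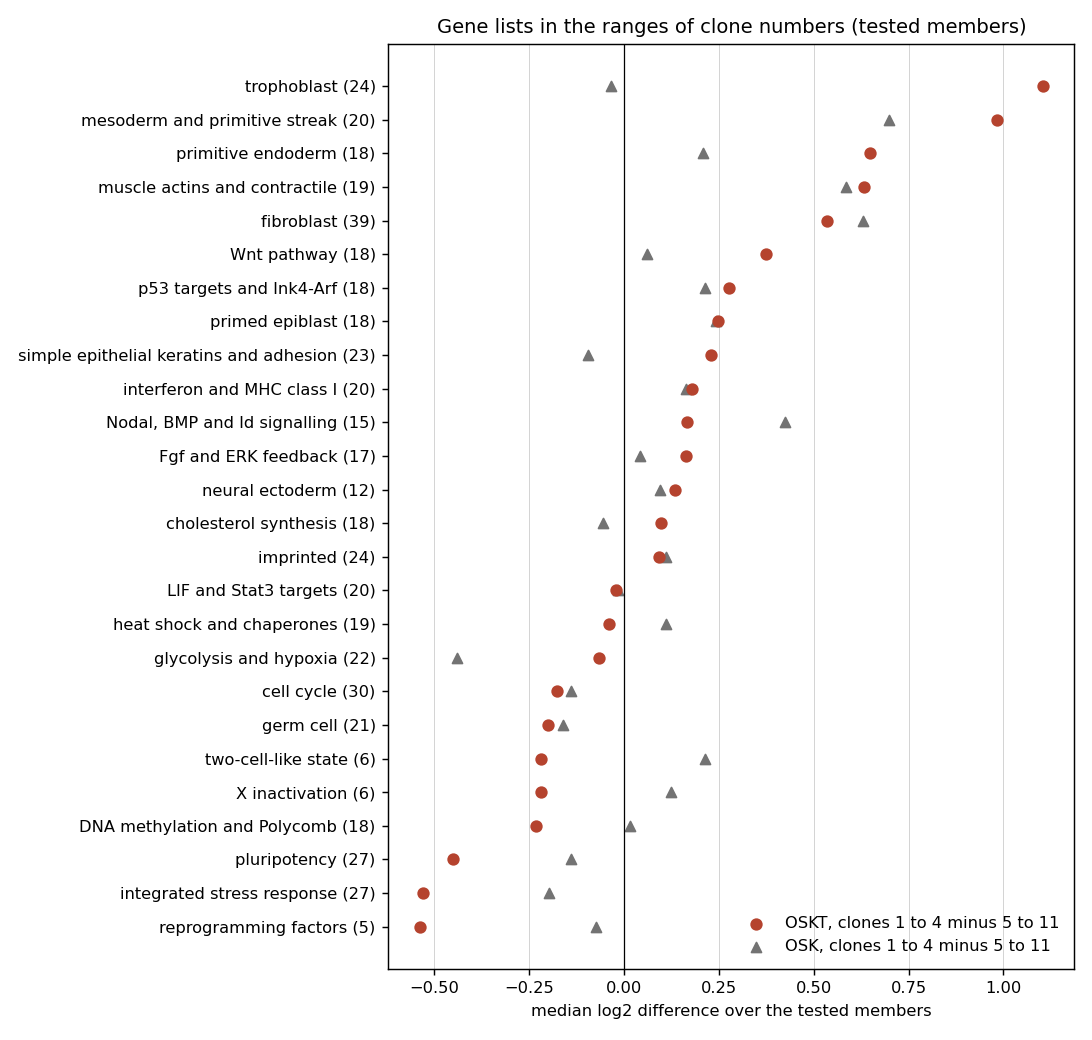
Median log2 difference, clones 1 to 4 minus clones 5 to 11, over the tested members of 26 gene lists (number of members in brackets), for OSKT clones (circles) and OSK clones of the same numbers (triangles). Trophoblast stands at 1.10 in OSKT and −0.03 in OSK, and primitive streak at 0.98 and 0.70, values that include genes below background in clones 5 to 11.

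Genes of the naive state stood lower in clones 1 to 4. All 5 tested reprogramming factor genes were lower without overlap, by a log2 difference of −0.86 for Klf4, −0.60 for Sox2, −0.54 for Tbx3, −0.48 for Pou5f1 and −0.33 for Esrrb. Klf4, a Krüppel-like factor that holds the naive state, was at 9.17, 8.81, 8.75 and 9.36 in clones 1 to 4 and at 9.80 to 10.02 (median 9.83) in clones 5 to 11. Tbx3, the T-box factor that sets the OSKT cocktail apart from OSK, was at 10.56, 10.36, 10.48 and 10.74 in clones 1 to 4. In clones 5 to 11 it was at 10.75 to 11.22 (median 11.15), where clone 5 was the lowest, and it was at 11.17 in R1. OSK clones, made without added Tbx3, averaged 10.91 for numbers 1 to 4 and 10.68 for 5 to 11, beside 10.54 and 11.07 in OSKT. Tbx3 was thus not higher in OSKT clones 1 to 4 than in OSK clones of the same numbers. Whether a probe reads the added copy of its factor as well as the cell's own gene is not given in the sources used here. Over all 11 clones Klf4, Sox2 and Esrrb fell against R1, by 1.31, 0.55 and 0.82 on the log2 scale (limma adjusted p = 1.26e-06, 0.000484 and 2.28e-06). With near-identical arrays averaged, Sox2 missed the threshold (adjusted p = 0.145). Under median scaling 1 of the 5 genes was lower in clones 1 to 4 without overlap.

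On the pluripotency list 14 of 27 tested genes were lower in clones 1 to 4 without overlap, 2 of them by at least 2-fold, and none was higher, with a median difference of −0.45. Under median scaling 6 were lower and none higher, and the median was −0.26. Nanog, a homeobox factor of the naive state, was at 12.67, 12.31, 12.26 and 12.39 in clones 1 to 4 and at 12.98 to 13.23 (median 13.05) in clones 5 to 11, and R1 averaged 13.06. Fgf4, the ligand by which pluripotent cells prompt their own differentiation, was at 9.33, 8.95, 8.88 and 9.00 in clones 1 to 4 and at 10.08 to 10.67 (median 10.44) in clones 5 to 11, so that its level in clones 5 to 11 was 2.56-fold that in clones 1 to 4. Tcl1, a coactivator of the kinase Akt that is high in ES cells, had a mean of 9.63 in clones 1 to 4 and 10.63 in clones 5 to 11. The list's mean log2 intensity was 10.65, 10.48, 10.46 and 10.64 in clones 1, 2, 3 and 4, 10.91 to 11.08 in clones 5 to 11 and 11.34 to 11.41 in R1, so both ranges lay below R1. Against R1, 15 of the 27 genes fell and 3 rose over all OSKT clones by limma, and 9 fell and 2 rose with near-identical arrays averaged.

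Germ line genes were split. Of 21 tested genes, 10 were lower in clones 1 to 4 without overlap, 3 of them by at least 2-fold, and 2 were higher, the placental and germ line genes Rhox6 and Rhox9 (Rhox9 was named after its values were seen), with a median difference of −0.20. Under median scaling 5 were lower. Against R1, 11 of the 21 genes rose and 5 fell over all OSKT clones by limma, beside 26.4% and 27.9% of all features. Fewer genes passed with near-identical arrays averaged. The list's mean log2 intensity was 10.04 to 10.13 in clones 1 to 4 and 10.26 to 10.46 in clones 5 to 11. In R1 it was 9.73 to 9.79, below every OSKT clone. Stra8, which licenses entry into meiosis, was at 6.50, 6.86, 6.75 and 6.89 in clones 1 to 4, where 1 of 4 arrays was above background, and at 7.52 to 8.65 (median 8.21) in clones 5 to 11, where all were. Dazl, an RNA-binding protein of germ cells, was at 7.19, 7.11, 6.82 and 6.94 in clones 1 to 4 and at 7.61 to 8.59 (median 8.07) in clones 5 to 11, and it fell against R1 by 0.97 over all clones (limma adjusted p = 0.000523, and 0.0965 with near-identical arrays averaged). Among the lowest genes of all, Catsperz, a part of the sperm calcium channel, was at 8.82, 8.60, 8.75 and 8.81 in clones 1 to 4 and at 10.03 to 10.61 (median 10.36) in clones 5 to 11. Smc1b, a cohesin of meiosis, and Aurkc, the aurora kinase of germ cells, stood at 2.30-fold and 2.51-fold in clones 5 to 11 over clones 1 to 4. Rhox13, an X-linked homeobox gene of the testis, was at 8.22 ± 0.10 in clones 1 to 4 and 9.51 ± 0.23 in clones 5 to 11 (SD, n = 4 and 7), and fell by 2.21 against R1 over all clones (limma adjusted p = 3.57e-09).

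The integrated stress response list holds targets of Atf4 for amino acid synthesis, transport and tRNA charging. Of 27 tested genes, 20 were lower in clones 1 to 4 without overlap, 1 of them by at least 2-fold, and 2 were higher, with a median difference of −0.53. Under median scaling 7 were lower and 3 higher, with a median of −0.25 against 0.15 for all features. Phgdh, the first enzyme of serine synthesis, was at 8.97, 9.10, 8.86 and 8.98 in clones 1 to 4 and at 9.64 to 9.92 (median 9.81) in clones 5 to 11. Shmt2, the mitochondrial enzyme that passes serine carbon to folate, was at 9.37 ± 0.09 in clones 1 to 4 and 10.12 ± 0.06 in clones 5 to 11. Chac1, a glutathione-degrading enzyme, was at 9.54, 9.50, 9.44 and 9.64 in clones 1 to 4 and at 9.91 to 11.26 (median 10.47) in clones 5 to 11, both below the R1 mean of 13.50. Against R1, 23 of the 27 genes fell and none rose by limma, with Chac1 at −3.29 ± 0.28 (SE, adjusted p = 2.47e-12), and 12 fell with near-identical arrays averaged, against 25 under median scaling.

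The other lists are read against the shares of all features. Of 30 cell cycle genes 5 were higher and 8 lower without overlap, with Ccnd2 (cyclin D2) at 11.63 ± 0.20 in clones 1 to 4 and 10.06 ± 0.44 in clones 5 to 11. Of 18 p53 and Ink4-Arf genes 6 were higher and 1 lower, among them Cdkn2b, the cell cycle inhibitor p15, 2.49-fold higher in clones 1 to 4. These were 16.7% and 26.7% of the cell cycle list and 33.3% and 5.6% of the p53 list, beside 14.3% and 13.1% of all features. Glycolysis and hypoxia had 0 higher and 3 lower of 22, cholesterol synthesis 2 and 2 of 18, interferon and MHC class I 4 and 1 of 20, DNA methylation and Polycomb 1 and 5 of 18, and LIF and Stat3 targets 4 and 5 of 20. The list for neural ectoderm had 4 higher and 3 lower of 12, primed epiblast 5 and 2 of 18, Fgf and ERK feedback 5 and 1 of 17, heat shock and chaperones 2 and 3 of 19, X inactivation 0 and 2 of 6, and the 2-cell-like state 0 and 2 of 6. Shares above those of all features were thus also seen outside the lists described first. Among them were neural ectoderm (33.3% higher and 25.0% lower), Fgf and ERK feedback (29.4% higher), primed epiblast (27.8% higher) and DNA methylation and Polycomb (27.8% lower). In neural ectoderm 3 of the 12 genes were below background on all arrays of clones 5 to 11. Its median difference of 0.13 became −0.04 with genes at their bounds. For primed epiblast the median was 0.25, or 0.12 with genes at their bounds. Obox6, a homeobox gene on the 2-cell-like list, was at 9.75 ± 0.27 in clones 1 to 4 and 10.82 ± 0.15 in clones 5 to 11, and R1 averaged 7.50.

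Median scaling moved these counts. Higher and lower counts became 13 and 0 for the streak list, 15 and 0 for trophoblast, 10 and 0 for primitive endoderm, 13 and 0 for keratins and adhesion, 32 and 0 for fibroblast and 13 and 1 for contractile genes. They became 8 and 0 for both the Wnt and the Nodal, BMP and Id lists, 10 and 1 for imprinted genes, 10 and 0 for p53 and Ink4-Arf, 5 and 0 for cell cycle and 9 and 0 for cholesterol synthesis. For DNA methylation and Polycomb they were 3 and 0, for primed epiblast 9 and 0, for Fgf and ERK feedback 7 and 1, for neural ectoderm 4 and 0, and for LIF and Stat3 targets 5 and 2. Interferon and MHC class I had 4 and 0, glycolysis and hypoxia 2 and 1, heat shock and chaperones 3 and 1, X inactivation 0 and 1, and the 2-cell-like state 1 and 1. The lower calls of the cell cycle and DNA methylation lists were thus gone under median scaling, and cholesterol synthesis had 9 higher calls in place of 2, while 2780 and 371 of all features were called.

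A gene could also set pairs of clones apart inside a range. Tmtc3, an enzyme that adds mannose to cadherins, was at 9.09 and 9.13 in clones 1 and 4, at 6.79 and 6.69 in clones 2 and 3, and at 9.29 to 9.44 (median 9.34) in clones 5 to 11. The low level of clones 2 and 3 was near those of R1 (6.71) and of OSK clones (6.84 and 6.75 for clones 1 to 4 and 5 to 11). These are values near background. Tmtc3 was above background on 2 of 4 arrays of OSKT clones 1 to 4 and 1 of 4 R1 arrays. In OSK it was so on 1 of 4 arrays of clones 1 to 4 and 1 of 7 of clones 5 to 11. The OSKT ranges did not overlap, but the mean difference of −1.44 rests on the dim signals of clones 2 and 3.

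Clones 5 to 11 were nearer than clones 1 to 4 to the R1 mean for 177 of the 230 higher features (77.0%) and for 19 of the 43 lower ones (44.2%), and for 52.1% of all features. A feature was counted as nearer also where R1 lay between the ranges. The 230 and 43 features were picked by the contrast between the ranges, so these shares are a description only. Of the 230, 38 were below background on all arrays of clones 5 to 11. Where R1 was below background too, as for Lhx1, Sox17 and Ctsj, nearness compares values at background. For features high in clones 1 to 4, R1 was thus mostly nearer to clones 5 to 11. For those high in clones 5 to 11 it was not mostly nearer to clones 5 to 11. Spink1, a secreted trypsin inhibitor, was an exception, with 12.30 ± 0.17 in clones 1 to 4, 10.00 ± 0.60 in clones 5 to 11 and 12.34 in R1. Lst1, a transmembrane adaptor of leukocytes, was at 8.59 in clones 1 to 4, 9.78 in clones 5 to 11 and 8.01 in R1. Across all 11 clones, 2785 features rose (26.4%) and 2939 fell (27.9%) against R1 by limma, and median scaling moved this to 2027 and 3701.

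The same numbers were compared in the OSK set, which shares no sample with OSKT. The ranges were chosen with results of all sets known, so the values are a description and not a separate check. Across the 10533 features, the difference of clones 1 to 4 minus 5 to 11 in OSKT and that in OSK had a Pearson correlation of 0.60, and the correlation with OSE clones 1 to 4 minus 5 to 8 was 0.38. All arrays were normalized together, and features are not independent. Of the 230 features higher in OSKT clones 1 to 4, 205 had the same sign in OSK and 102 were also at least 2-fold higher without overlap there, which is 44.3% of the OSKT list and 71.8% of the 142 in the OSK list. Of the 43 lower features, 34 had the same sign and 2 were also called. Over all 10533 features, 142 were called higher and 13 lower in OSK by this rule. The share of all features with the same sign in both sets was not computed, so the counts of same sign have no background beside them. Lhx1 was above background on all 4 arrays of OSK clones 1 to 4 and on none of OSK clones 5 to 11, at least 5.98-fold higher, beside at least 4.47-fold in OSKT. The sizes cannot be compared further where a range lies below background. Sp5 averaged 10.84 in OSK clones 1 to 4 and 7.80 in OSK clones 5 to 11.

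The streak genes and fibroblast genes thus stood apart by clone number in both sets, with a fibroblast median of 0.63 in OSK beside 0.53 in OSKT. Trophoblast genes had a median of −0.03 in OSK beside 1.10 in OSKT (−0.03 and 0.77 with genes at their bounds). Cdkn1c differed by −0.13 in OSK, Igf2 by 0.06, Rhox6 by −0.16 and Ctsj by −0.17, each with overlap between the OSK ranges. The trophoblast list's mean was 9.76 to 9.89 in OSK clones 1 to 4 and 9.35 to 9.92 in OSK clones 5 to 11, both above the 9.12 to 9.23 of OSKT clones 5 to 11. Whether the range differences differ between the sets was not tested. The labels give no array, batch or culture date, so what the clone numbers share across the sets cannot be told apart from the clones themselves.

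**Figure D4:**
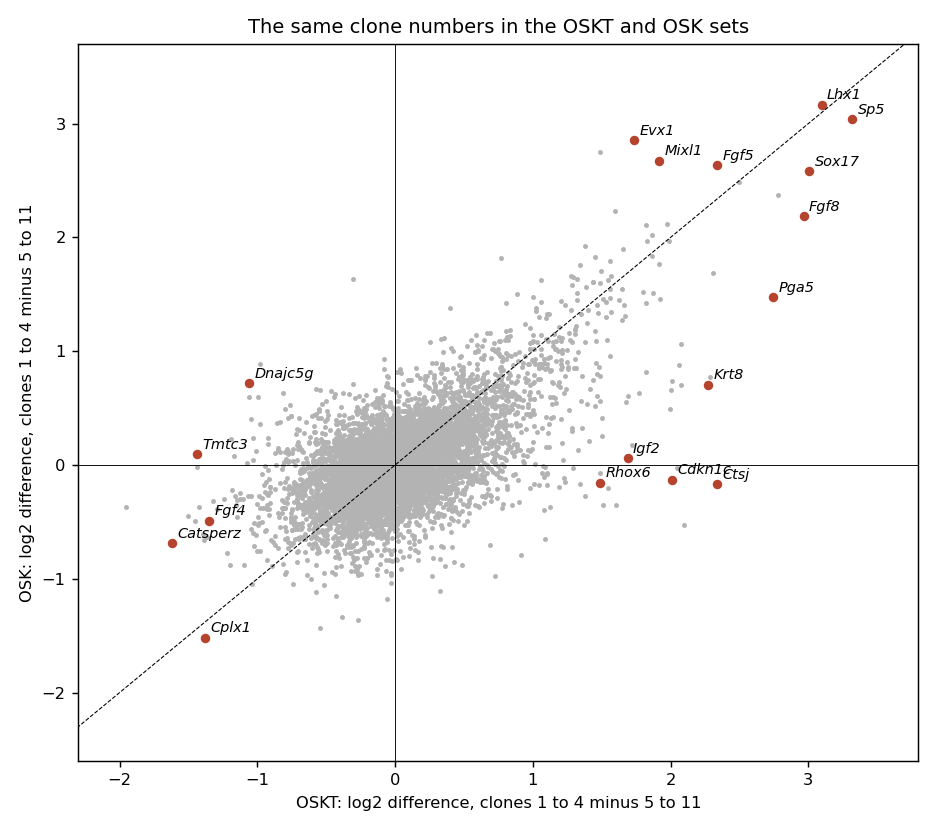
Log2 difference of clones 1 to 4 minus clones 5 to 11 in the OSKT set (horizontal) and in the OSK set (vertical) for 10533 features (grey points), with named genes in colour and the line of equal differences dashed. Lhx1 and Sp5, dim in clones 5 to 11, lie far to the right and high, and Cdkn1c, Igf2, Rhox6 and Ctsj lie near 0 in the OSK set.

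Genes of 1 stretch of chromosome 14 moved together. In the gene order of RefSeq on GRCm38.p6, a running median over 21 tested genes of the range difference stayed above 0.35 for 72 neighbouring genes, from Neil2 to Naa16, a rule chosen after the values were seen. The next longest such run on any chromosome held 11 genes, on the X chromosome, in the other direction. Over the 72 genes the median difference was 0.50, so that clones 5 to 11 stood at 0.706 of the level of clones 1 to 4. Of these genes, 67 had a mean difference above 0, 45 were higher in clones 1 to 4 without overlap and none was lower. Over the other 247 tested genes of chromosome 14 the median difference was 0.01, with 51 higher and 17 lower without overlap. The higher ones were 20.6%, beside 14.3% of all features. Shorter runs past the same limit lay just before the stretch, the longest with 8 genes from Kcnrg to Defb43. The edges of the stretch thus depend on the limit and the window.

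Against the R1 mean, the median of the 72 genes was −0.04, 0.01, 0.01 and 0.05 on the log2 scale in clones 1, 2, 3 and 4, and ran from −0.60 to −0.39 with a median of −0.50 in clones 5 to 11. All 7 clones of the higher range were low and all 4 of the lower range were at the R1 level. The same median was 0.01 ± 0.02 in OSK clones 1 to 4, −0.02 ± 0.03 in OSK clones 5 to 11 and 0.02 ± 0.04 in the OSE clones (SD, n = 4, 7 and 8). The lowest OSK clone was at −0.08 and the lowest OSE clone at −0.04. The stretch was thus low in clones 5 to 11 of the OSKT set and in no other iPS clone of the series.

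Rb1, the retinoblastoma tumour suppressor, lies in this stretch and was at 9.34, 9.41, 9.35 and 9.45 in clones 1 to 4 and at 8.50 to 9.00 (median 8.78) in clones 5 to 11, beside 9.28 in R1. Clu, a secreted chaperone, Nudt18, a nucleotide hydrolase, and Bmp1, a procollagen protease, were the 3 genes of the stretch past 2-fold, and were named after their values were seen. Nudt18 was at 10.54, 10.66, 10.56 and 10.47 in clones 1 to 4 and averaged 9.34 in clones 5 to 11. The stretch also holds Gata4 and Nefm, members of the endoderm and neural lists named for their position, and it supplied 2.99% of all features called higher without overlap. DNA copy number was not measured here, and whether it differs between the clones was not tested.

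**Figure D5:**
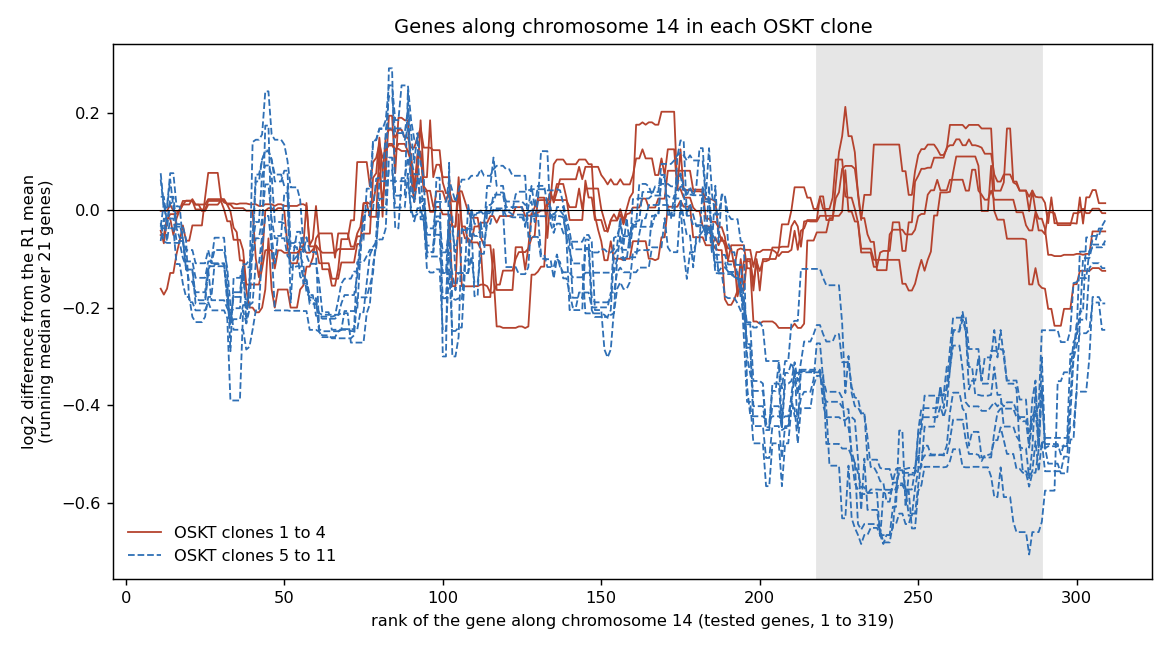
Running median over 21 tested genes of the log2 difference from the R1 mean, by rank of the gene along chromosome 14, in each OSKT clone (solid, clones 1 to 4, and dashed, clones 5 to 11), with the stretch of 72 genes shaded. In the shaded stretch clones 1 to 4 stay around 0 and clones 5 to 11 lie below them, as most of them also do just before and after it.

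The X chromosome stood higher in clones 5 to 11. The median of 295 X-linked genes against R1, less that of autosomal genes, was 0.36, 0.26, 0.23 and 0.34 in clones 1, 2, 3 and 4, and ran from 0.42 to 0.55 in clones 5 to 11, without overlap. Without overlap, clones 1 to 4 were above clones 5 to 11 for 25 of these genes (8.47%) and below them for 100 (33.9%). Hprt, an enzyme of purine salvage on the X chromosome, was at 12.69, 12.65, 12.48 and 12.53 in clones 1 to 4 and at 12.93 to 13.24 (median 13.04) in clones 5 to 11, and rose against R1 by 0.66 ± 0.10 over all clones (SE, limma adjusted p = 3.94e-07). OSK clones of the same numbers had 0.26 ± 0.04 and 0.16 ± 0.09 (SD, n = 4 and 7), in the other order. Autosomes other than chromosome 14 had range differences between −0.04 and 0.03. R1, the reference here, was above background for the Y-linked gene Eif2s3y on all 4 arrays, and the OSKT clones on none of 11. Whether this bears on the X-linked levels against R1 was not tested.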

How the data were processed

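Total RNA of 36 samples was labelled as biotinylated cRNA and hybridized to a one-colour Illumina mouse bead array, per the labels' protocols, and read with BeadStudio, per the submitters' processing notes (no version given). The authors deposited intensity values that were not scaled between arrays and had a background already subtracted, as their negative values show, and a scaled table of intensity values, used as an alternative. The genome build of the probes is not given in the sources used here.

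Of 24613 probes, 5893 (23.9%) had values between -5.5 and 15.5 on all 36 arrays and were left out as placeholders without a measurement, which left 18720. After normexp background correction (offset 16) and quantile normalization across all 36 arrays, done with limma 3.58.1 in R 4.3.3, intensities were log2-transformed. Detection on an array meant a signal over the 99th percentile of a normal distribution whose spread was that of the array's negative signals. Features had to be detected on 4 or more arrays, and each gene was represented by its brightest probe. Symbols came from the platform annotation, updated through gene IDs to RefSeq (GRCm38.p6). Where a whole range was below background, its fold is a bound, taken from the dimmest detected signal of each array. List medians were also taken with such genes at their bound, a choice made after seeing the data. The number of arrays limits the precision.

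The members, gene lists and ranges were chosen with earlier results of these data known. Genes were named by rule: the 15 highest and 15 lowest non-overlapping ones (detected on every array of the brighter range, without clone or model names), reprogramming factors, at most 4 members of each list by size of difference, and Y-linked genes and Xist where tested (Xist was not tested). Some lists share members, such as Krt8 and Rhox6. OSKT clones were compared with R1 by limma (1 mean per group over all 36 arrays, intensity trend, 2-sided, Benjamini-Hochberg over all features, adjusted p under 0.05), and clones counted as replicates. The fit and the call rule were tested on simulated data with independent arrays. Such data do not show how either behaves with near-identical arrays like those found here. Alternatives were median scaling, the scaled table, no background correction, other filters and probes, near-identical arrays averaged, array weights, other arrays in the fit and each array left out. Promoter sequences came from RefSeq.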

Additional observations from a re-analysis of the deposited data

Results flagged for a closer look

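Among 280 groups of 4 or 7 values examined, 8 held a clone far from the others of its range, and chance flags about 1 group in 20. Tbx3 was at 10.75 in OSKT clone 5, below the other 6 clones of its range. The mean of the germ cell list was lowest in the same clone, at 10.26. Clone 11 was low for Cdkn1c at 10.36 and for Cdkn1a, a p53 target, at 11.58, and for the means of the imprinted list at 9.75 and of the list for Fgf and ERK feedback at 9.47. In clones 1 to 4, clone 4 was low for Zfp352 at 6.93 and clone 3 was high for B2m, the light chain of MHC class I, at 11.90.

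Dnajc5g, a DnaJ-family chaperone gene, went opposite ways without overlap, at 8.58 in OSKT clones 1 to 4 and 9.64 in OSKT clones 5 to 11, but at 8.24 in OSK clones 1 to 4 and 7.53 in OSK clones 5 to 11. The range difference was lower by 1.78 on the log2 scale in OSKT than in OSK (-1.78), and this difference was not tested.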

How the results depend on the processing

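The 230 and 43 features at least 2-fold higher and lower in clones 1 to 4 became 378 and 17 with median scaling, 536 and 105 in the authors' scaled table and 479 and 161 without background correction. At 1.5-fold they were 654 and 306, and at 3-fold 47 and 2. Leaving out each OSKT clone in turn gave 213 to 239 and 37 to 53. The mean distance between the ranges (0.44) and within clones 1 to 4 (0.23) became 0.50 and 0.28 with median scaling, and 0.70 and 0.44 in the scaled table, where that within clones 5 to 11 was 0.45 in place of 0.26. In the scaled table chromosome 14 against R1 was at -0.21 in clones 5 to 11, and the X chromosome at 0.39 in clones 1 to 4 and 0.58 in clones 5 to 11. The cause was not tested. The run on chromosome 14 had a median of 0.75 with median scaling and 0.71 in the scaled table.

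Against R1, averaging near-identical arrays gave 1199 features higher and 1255 lower in OSKT clones, in place of 2785 and 2939, with R1 then a single sample assumed to vary like the other groups. Leaving out each array in turn gave 2515 to 2791 and 2682 to 2951. The replicate block gave 2992 and 3247. OSKT and R1 arrays of the same number share only the number: the correlation of their deviations was -0.07 to 0.01 over 4 pairs, and no R1 array correlated best with its own number. Under the replicate block the OSKT minus R1 difference of Cpn1 was -0.60 and that of H2-Bl -0.52, and those of Thbs1, Timp2 and Ccnd2 were 0.72, 0.69 and 0.77, each opposite in sign to the value without it. None of the 5 passed the test without the block (adjusted p = 0.845 to 0.999), and all 5 passed with it (limma adjusted p = 0.00918 to 0.0187). With the mean of a gene's probes, Tcstv3 was at 0.69 in place of -0.10. The range difference of Kdm6a was 0.007 with median scaling, in place of -0.25. Probes near background limit what can be said of Lhx1, Sox17, Mixl1 and Evx1 in clones 5 to 11.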
